A study of Mus musculus with 12 samples.

Results

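Interferon-stimulated genes are the genes that cells switch on when interferon binds its receptor. A list of 39 such mouse genes was followed in macrophages from a culture model of neuroblastoma. A gene was represented by probe sets whose platform annotation names that gene and no other, and by the brightest of them on average. Of the 39 genes, 35 had such a probe set, and all 35 entered the tests among 12488 tested genes of 17097 measured. Gbp5, Isg15, Bst2 and Ifi44 were not analysed here.

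The neuroblastoma line TT9423 formed spheres overnight in agar-coated plates, after which macrophages grown from C57BL/6 bone marrow were added in a number equal to that of the tumour cells. The 4 groups were macrophages from inside the spheres at 48 h, macrophages left outside the spheres at 48 h, macrophages from inside the spheres at 24 h and macrophages left outside at 24 h, with 3 arrays in each group. All 4 groups share the mouse strain and the presence of the tumour line, and no group was treated with interferon or another agent per the labels. In-sphere macrophages were recovered from digested spheres with CD11b magnetic columns. The protocol text is the same on all samples and describes only the sphere cells, so whether the outside cells, labelled as coming from agar culture, were digested and column-selected too is unknown. Each array stands for an independent experiment with cells pooled over wells, per the series' design text. The 48 h groups are known by their titles and time labels, since the protocol text on all samples speaks of a co-culture of 24 h. The tumour model is a single cell line in culture.

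Type I interferons act through the receptor chains IFNAR1 and IFNAR2 and the kinases JAK1 and TYK2, which lead to a transcription factor complex with STAT2 and IRF9 that binds the interferon-stimulated response element in promoters. The induced genes include RNA and DNA sensors, factors that amplify the response, enzymes that degrade or withhold viral RNA, membrane-bound GTPases that attack intracellular microbes, and inhibitors that end the signal. Macrophages make interferon-beta in response to nucleic acids and microbial products, and many keep a low tonic level of this programme without infection. In bulk samples such as these, fewer cells that express a gene and less RNA per cell cannot be told apart.

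RefSeq promoter windows from 250 bases before to 50 bases after an annotated start (assembly GRCm38.p6) were at hand for 25 of the 35 genes. The core of the response element, written GAAANNGAAA and searched on both strands, was present in 14 of the 25, or 56%, against 3.99% of 27025 genes with a window. The core of the gamma-activated site, TTCNNNGAA, was present in 6 of the 25, or 24%, against 9.55% of all genes. The 2 motifs were counted separately, and a match is a description of the letters only. Only genes with a response element core before the start could be shown. Ifit2, which swung widely between arrays, and Isg20, which was higher in spheres, have a window without this core. The following stretches end before the annotated start and are from 3 genes with wide swings between arrays (Ifit1, Ifit3 and Rsad2). Further stretches are from the 2 guanylate-binding genes that were higher in spheres (Gbp3 and Gbp2). The last stretches are from 2 genes that lay low in spheres relative to the rest of the list (Oas3 and Irgm1). They are given 5′ to 3′ on the strand of the gene, with every match to the response element core in capitals. A match that reads as pairs of TTTC is the same core on the opposite strand. The 2 matches of Gbp3 overlap, as do the 2 matches of Irgm1.
Ifit1 (chr19:34640745-34640853, plus strand): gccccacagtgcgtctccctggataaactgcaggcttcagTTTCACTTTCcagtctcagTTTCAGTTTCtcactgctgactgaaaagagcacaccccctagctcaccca
Ifit3 (chr19:34583333-34583456, plus strand): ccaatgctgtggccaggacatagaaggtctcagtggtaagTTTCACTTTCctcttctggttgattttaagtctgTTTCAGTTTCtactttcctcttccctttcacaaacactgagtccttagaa
Rsad2 (chr12:26456523-26456612, minus strand): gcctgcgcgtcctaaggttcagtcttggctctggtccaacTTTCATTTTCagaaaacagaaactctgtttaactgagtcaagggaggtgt
Gbp3 (chr3:142559959-142560043, plus strand): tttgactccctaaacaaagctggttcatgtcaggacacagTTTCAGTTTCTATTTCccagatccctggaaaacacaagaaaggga
Gbp2 (chr3:142620564-142620653, plus strand): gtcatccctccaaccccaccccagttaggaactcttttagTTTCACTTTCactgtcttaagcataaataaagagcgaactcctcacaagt
Oas3 (chr5:120777685-120777774, minus strand): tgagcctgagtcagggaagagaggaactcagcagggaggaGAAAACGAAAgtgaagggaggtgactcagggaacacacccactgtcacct
Irgm1 (chr11:48871421-48871490, minus strand): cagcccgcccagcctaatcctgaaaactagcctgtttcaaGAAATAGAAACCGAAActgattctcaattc

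All 10 measured macrophage markers were above 2.77 on every array, but some differed between the compartments. At 48 h 2 were called higher and 4 lower in spheres, against 15.2% and 22.3% of all tested genes. At 24 h 1 was called higher and 3 lower, against 15.8% and 13.6%. Means at 48 h in spheres and outside were 5.71 and 8.02 for Cebpa, 7.83 and 9.08 for Mertk, and 11.97 and 10.89 for Cd14. Csf1r, the receptor for the macrophage growth factor, lay between 9.01 and 9.97 on the log2 scale over all 12 arrays, Cd68 between 11.32 and 12.37, and Itgam, which encodes CD11b and is also a granulocyte gene, between 8.06 and 9.11. Granulocyte markers were bright as well: S100a8, a neutrophil calcium-binding protein, lay between 12.08 and 13.38. One array, the third replicate inside spheres at 48 h, was low as a whole: its mean over all probe sets was 4.06, against 4.22 and 4.22 on the other arrays of its group, and it was the lowest array of its group for 71.8% of genes. Leaving it out ended no call among the interferon-stimulated genes between compartments. Among the other genes named with a call, it ended that of Ifngr1 at 48 h and that of Socs1 as the mean over both times.

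The interferon-stimulated genes varied between replicate arrays far more than most genes. The residual SD within groups had a median of 0.597 over the 35 genes, against 0.205 over all tested genes and 0.192 over the 6437 genes in the same range of mean level. It exceeded the all-gene median for 35 of 35 and the 90th percentile of all genes, 0.363, for 33 of 35. The lowest value, 0.264, was that of Irf9, a partner of STAT2, and the next, 0.306, that of Irf1, a factor downstream of both interferon types. The highest value, 1.23, was that of Iigp1, an immunity-related GTPase, followed by Mx1 with 0.989, Ifit2 with 0.949 and Ifit3 with 0.948. By group, the median SD of the genes was 0.364 in spheres at 48 h and 0.520 outside at 48 h, against 0.201 and 0.131 over all genes in those groups. At 24 h it was 0.638 in spheres and 0.736 outside, against 0.184 and 0.154 over all genes. The excess was weaker in spheres at 48 h, where 8 of 35 genes exceeded the 90th percentile of that group and 28 its median. The 90th percentile of the group was exceeded by 32 genes outside at 48 h, and by 30 in spheres and 33 outside at 24 h. In those groups 35 of 35 exceeded the median.

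**Figure D1:**
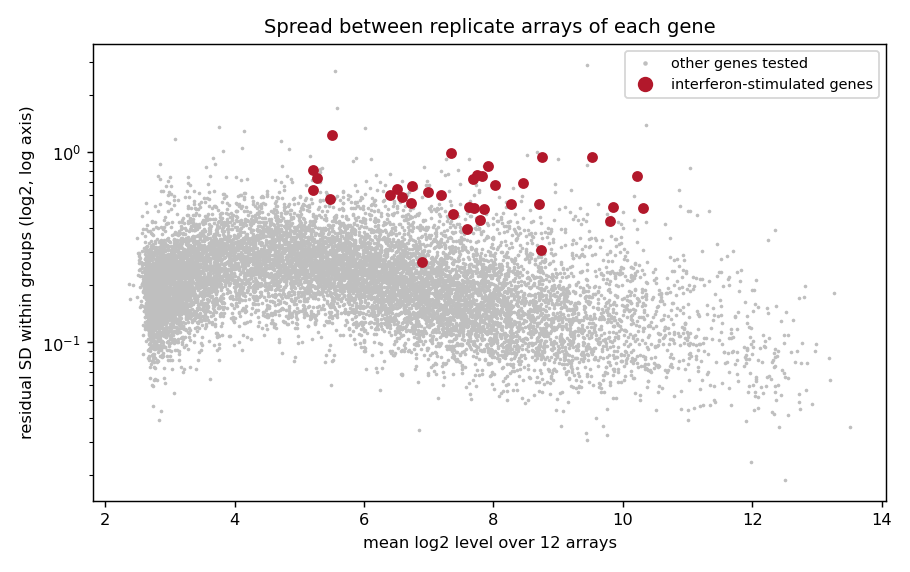
Residual SD within the 4 groups (vertical log axis, log2 units) against mean log2 level over 12 arrays (horizontal axis) for 12488 tested genes, with the 35 interferon-stimulated genes as large points. The large points lie between 0.264 and 1.23, all above the all-gene median of 0.205.

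The genes moved together from array to array, so that each group had an array with a high and an array with a low programme. Their median level was 7.32, 7.78 and 7.28 on replicates 1, 2 and 3 in spheres at 48 h, and 7.34, 6.71 and 7.96 outside at 48 h. It was 7.31, 7.92 and 8.46 in spheres at 24 h, and 7.72, 7.11 and 8.62 outside at 24 h. The highest array of a group was therefore replicate 2 in spheres at 48 h and replicate 3 in the other 3 groups. That array was the highest for 34 of 35 genes in spheres at 48 h, 35 of 35 outside at 48 h, 34 of 35 in spheres at 24 h and 34 of 35 outside at 24 h. Among all tested genes, the same array was the highest for 38.5%, 32%, 34.6% and 32.3% in those groups. In all 4 groups at once it was the highest for 33 of 35 genes, against 2.51% of all genes. The exceptions were Eif2ak2, the RNA-activated kinase that halts translation, and Oas3, an oligoadenylate synthetase.

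The lowest array was replicate 2 outside at 48 h for 33 of 35 genes, against 38.6% of all genes. It was replicate 1 in spheres at 24 h for 34, against 38.6%, and replicate 2 outside at 24 h for 32, against 35%. In spheres at 48 h replicates 1 and 3 shared the low place, with 15 and 19 genes, against 12.9% and 71.8% of all genes. The complete order of the 3 arrays matched that of the list's median in all 4 groups for 16 of 35 genes, against 0.665% of all genes. That median is built from the same 35 genes, so their counts of shared order and shared highest array are in part set by construction. Over all tested genes, the median deviation from the group mean ran from -0.158 to 0.092 in spheres at 48 h and from -0.015 to 0.008 on the 9 arrays of the other groups. The array with the high programme also had the highest such median outside at 48 h, at 0.005, but not in the other 3 groups.

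**Figure D2:**
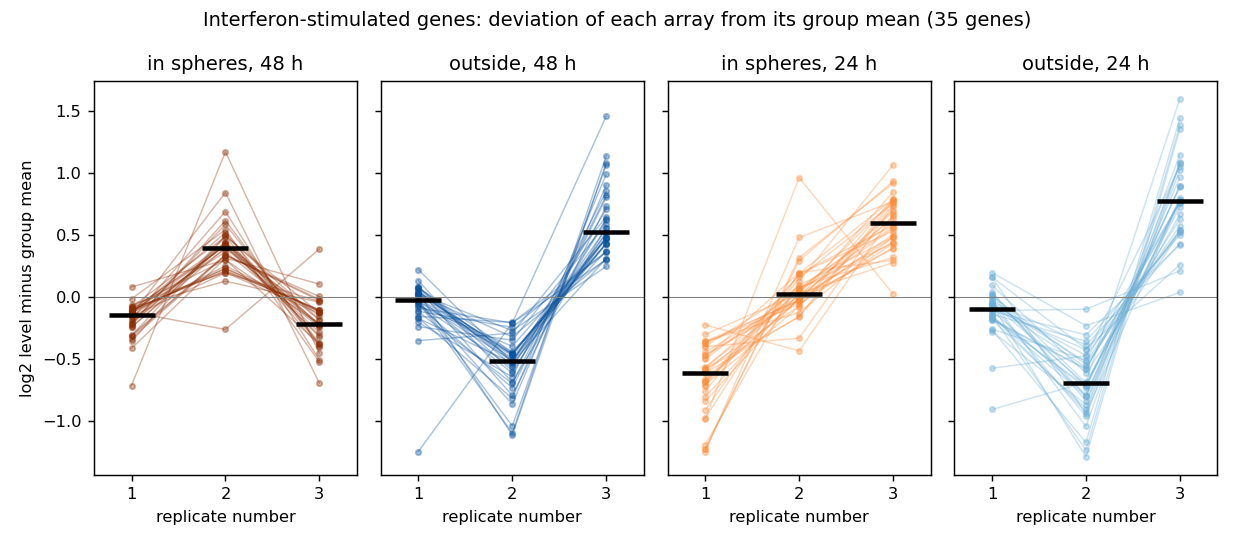
Deviation of each array from its group mean (vertical axis, log2 units) for 35 interferon-stimulated genes, drawn as one line per gene over replicates 1 to 3 (horizontal axis), with the median as a black bar; groups run from left to right as in spheres at 48 h, outside at 48 h, in spheres at 24 h and outside at 24 h. Replicate 2 was the highest array for 34 genes in spheres at 48 h, and replicate 3 was the highest for 34 or 35 genes in each of the other groups.

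RNA quality, as seen in the control probe sets, differed between arrays. The 3′ minus 5′ difference of the actin controls was 0.407 on the high array in spheres at 48 h, against 0.393 and 0.416 on the other arrays of that group. It was 0.370 on the high array outside at 48 h, the lowest of 3, 0.604 on the high array in spheres at 24 h, the highest of 3, and 0.224 on the high array outside at 24 h, the lowest of 3. The same difference of the Gapdh controls was -0.124, 0.169 and 0.425 on replicates 1, 2 and 3 in spheres at 24 h, the order of the list's median. On the high array it was 0.110 in spheres at 48 h and -0.043 outside at 24 h, each the lowest of 3. Outside at 48 h it was 0.087 on the high array, against 0.053 and 0.098 on the others. The part of RNA quality in the shared movement was not tested. Plasmacytoid dendritic cells are strong interferon producers. The summed level of the 7 measured markers of these cells was highest on the same array as the interferon-stimulated genes in all 4 groups, with ranges of 316 to 345 in spheres and 215 to 240 outside at 48 h, and of 309 to 352 in spheres and 218 to 280 outside at 24 h. Most of that sum came from Tcf4, a transcription factor also found in other cells, at 6.89 to 8.07 on the log2 scale and singled out here after its values were seen, while Ccr9 never passed the detection level of 2.77 and Siglech was not analysed here. Tcf4 itself was highest on replicate 3 in spheres at 48 h, and neither it nor Cox6a2 nor Ly6d, also of that list, shared the highest array in all 4 groups. Granulocyte and macrophage markers moved too: outside, replicate 2, the low array, had the highest granulocyte sum of its group (49200 at 48 h and 52900 at 24 h) and the lowest macrophage sum (18100 and 16700). The granulocyte sum did not follow this pattern inside spheres. There, at 48 h, replicate 2, the high array, had the highest granulocyte sum of its group (21100) and the lowest macrophage sum (18200). At 24 h replicate 1, the low array, had the lowest of both sums (19600 and 17500). In spheres at 24 h, replicates 1, 2 and 3 had fibroblast and stromal sums of 6470, 4430 and 3470, the reverse of the order of the list. The part of these cells in the shared movement was not tested.

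Interferon-beta itself was close to the detection level outside the spheres. Ifnb1 measured 4.01, 3.81 and 3.20 in spheres and 2.99, 3.13 and 3.29 outside at 48 h, and 3.79, 4.72 and 5.07 in spheres and 2.97, 3.12 and 3.04 outside at 24 h. At 24 h every in-sphere array lay above every outside array, and the gene was higher in spheres by 1.48 ± 0.28 (SE, n = 3 per group, limma adjusted p = 0.00195). At 48 h the difference was 0.54 ± 0.28 (limma adjusted p = 0.158), with replicate 3 in spheres inside the outside range. In spheres at 24 h the Ifnb1 order of the arrays was that of the interferon-stimulated genes, whereas in spheres at 48 h replicate 1 was the highest for Ifnb1 and replicate 2 for the list. Of the 10 interferon ligand genes with a probe set, 5 passed the filter. Besides Ifnb1, only Ifna9 was called, lower in spheres by 0.41 ± 0.13 at 48 h (limma adjusted p = 0.0270). That call was lost without replicate 1 or 2 in spheres or replicate 1 outside at 48 h, with limma adjusted p up to 0.121. Ifng, the interferon of T and NK cells, stayed below 2.77 on all arrays, as did Ifna6 and Ifna11.

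Against the spread within groups, few of the interferon-stimulated genes separated in-sphere from outside macrophages. At 48 h, 2 of 35 were called at an adjusted p under 0.05, both higher in spheres, against 37.5% of all tested genes. At 24 h, 1 of 35 was called, lower in spheres, against 29.4% of all genes. As the mean over both times, 3 of 35 were called, all higher, against 46.2% of all genes, and 0 were lower, against 25.6%. At an unadjusted p under 0.05 there were 3 of 35 at 48 h, against 46% of all genes, and 5 of 35 as the mean, against 52.5%. The median difference over the 35 genes was 0.12 at 48 h and 0.07 at 24 h, beside -0.10 and -0.01 over all genes. The standard error of a difference had a median of 0.407 over the list against 0.163 over all genes. The 95% interval of the difference lay within 1 log2 unit of 0 for 10 of the 35 genes at 48 h and for 10 at 24 h, and for the other 25 at each time the interval included differences larger than that. These values, and the adjusted p-values that follow, come from limma with Benjamini-Hochberg adjustment over all tested genes and n = 3 arrays per group.

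Isg20, an exonuclease that degrades RNA, had the smallest adjusted p of the list at 48 h and as the mean. It measured 7.49, 8.00 and 7.28 in spheres at 48 h and 5.83, 5.89 and 6.83 outside at 48 h. At 24 h it measured 7.68, 8.03 and 8.45 in spheres and 6.33, 6.43 and 7.96 outside. All in-sphere arrays lay above all outside arrays at 48 h, and at 24 h replicate 3 outside reached into the in-sphere range. The difference was 1.40 ± 0.41 at 48 h (limma adjusted p = 0.0169), 1.14 ± 0.41 at 24 h (limma adjusted p = 0.0521) and 1.27 ± 0.29 as the mean (limma adjusted p = 0.00298). The call at 48 h was lost without replicate 2 in spheres at 48 h (limma adjusted p = 0.0623), and without replicate 1 or 2 outside at 48 h (limma adjusted p = 0.0645 and 0.0617), while the call on the mean was kept without any single array.

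Gbp3 and Gbp2 encode guanylate-binding proteins, GTPases that assemble on vacuoles of intracellular microbes. Gbp3 measured 6.88, 7.22 and 6.87 in spheres at 48 h and 5.68, 5.11 and 6.11 outside at 48 h, without overlap. At 24 h the in-sphere values were 6.52, 7.26 and 7.79 and the outside values 6.34, 5.79 and 7.40, with overlap. Gbp3 was higher in spheres by 1.36 ± 0.40 at 48 h (limma adjusted p = 0.0177) and by 1.02 ± 0.28 as the mean (limma adjusted p = 0.0101), and the difference at 24 h was 0.68 ± 0.40 (limma adjusted p = 0.232). The 48 h call was lost without replicate 2 in spheres at 48 h (limma adjusted p = 0.0560) or replicate 2 outside at 48 h (limma adjusted p = 0.0759). Gbp2 measured 6.20, 6.86 and 5.96 in spheres and 5.27, 5.16 and 6.10 outside at 48 h. At 24 h it measured 7.17, 7.24 and 8.31 in spheres and 6.79, 5.69 and 7.42 outside. The groups overlapped at both times, and Gbp2 was called as the mean, 0.88 ± 0.31 higher in spheres (limma adjusted p = 0.0335). That call was lost on leaving out any 1 of 5 arrays, with limma adjusted p up to 0.0827 without replicate 3 in spheres at 24 h. A second Gbp2 probe set gave differences of 0.85 at 48 h and 0.85 at 24 h.

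Eif2ak2, the protein kinase PKR, was called lower in spheres at 24 h. It measured 5.64, 5.50 and 6.15 in spheres and 5.13, 4.79 and 5.42 outside at 48 h, with all in-sphere arrays above the outside ones. At 24 h it measured 3.37, 5.32 and 4.38 in spheres and 5.80, 4.90 and 6.89 outside, where replicate 2 of the in-sphere arrays lay above replicate 2 of the outside arrays. The difference was 0.65 ± 0.50 at 48 h (limma adjusted p = 0.336) and -1.51 ± 0.50 at 24 h (limma adjusted p = 0.0386). Between the times the difference changed by 2.15 ± 0.70 (limma adjusted p = 0.251). The 24 h call was lost in 8 of 21 other settings, among them leaving out replicate 1 in spheres at 24 h, which gave -1.01 (limma adjusted p = 0.166), replicate 3 outside at 24 h, which gave -0.99 (limma adjusted p = 0.158), and array weights, which gave -0.79 (limma adjusted p = 0.140).

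**Figure D3:**
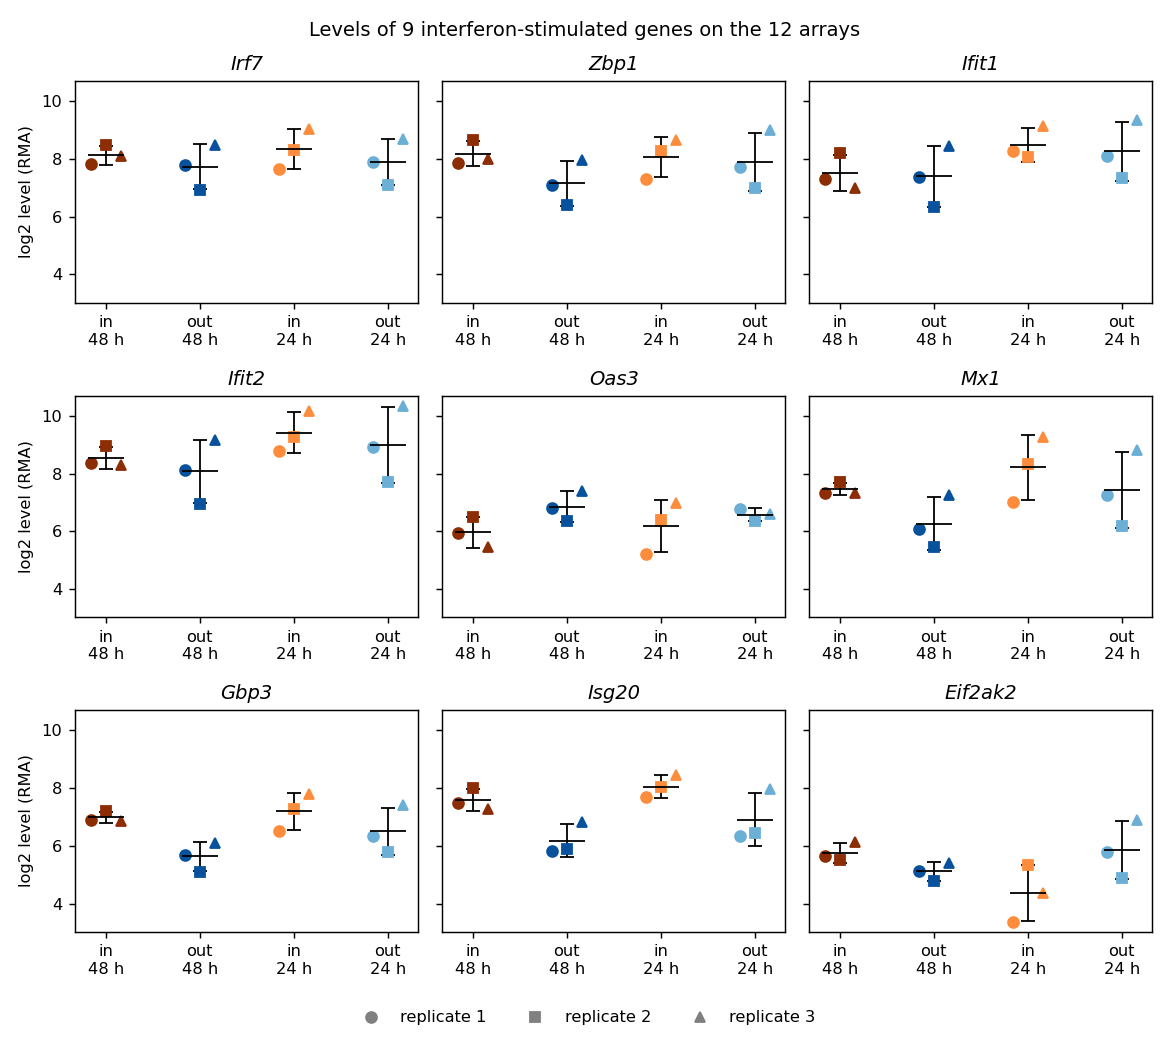
Log2 levels (vertical axis) of 9 interferon-stimulated genes on the 12 arrays, with groups from left to right as in spheres at 48 h, outside at 48 h, in spheres at 24 h and outside at 24 h; points are arrays with a marker per replicate number, and bars are the mean and SD (n = 3). Isg20 and Gbp3 separate the 48 h groups without overlap, while Ifit1, Ifit2 and Irf7 overlap at both times.

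The other genes are given by role. Among the transcription factors, 0 of 4 were called at either time, and 2 (Irf9 and Irf1) had an unadjusted p under 0.05 at 24 h. Irf7, which drives the interferon-alpha genes, measured 7.82, 8.47 and 8.10 in spheres and 7.80, 6.94 and 8.47 outside at 48 h, and 7.65, 8.32 and 9.04 in spheres and 7.91, 7.09 and 8.68 outside at 24 h. Its arrays overlapped at both times, and its differences were 0.39 ± 0.46 and 0.45 ± 0.46. Irf9 differed by -0.16 ± 0.20 at 48 h and -0.44 ± 0.20 at 24 h, and Irf1 by -0.10 ± 0.22 and -0.55 ± 0.22 (limma adjusted p = 0.0845 for Irf1 at 24 h). Stat2, which joins Irf9 at the response element, differed by -0.33 ± 0.39 and -0.13 ± 0.39.

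Of the sensors, 0 of 6 were called at either time. Ddx58 (RIG-I), Ifih1 (MDA5) and Dhx58 (LGP2) recognise viral RNA in the cytoplasm, and their differences ran from -0.15 to 0.02 at 48 h and from -0.06 to 0.18 at 24 h. Zbp1, a sensor of Z-form nucleic acids that can start necroptosis, measured 7.86, 8.67 and 7.99 in spheres and 7.09, 6.42 and 7.96 outside at 48 h, and 7.31, 8.26 and 8.65 in spheres and 7.72, 7.0 and 8.99 outside at 24 h. Only replicate 3 outside reached the in-sphere values at 48 h, and the difference of 1.02 ± 0.51 had a limma adjusted p of 0.140. Ifi204 and Ifi205 belong to the HIN-200 family of DNA-binding proteins, whose close paralogs can share probes. Their differences at 48 h were 0.01 ± 0.37 and 0.49 ± 0.35.

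The IFIT proteins, which bind foreign RNA, had residual SDs from 0.847 to 0.949 and gave 0 of 3 calls at either time. Ifit1 measured 7.32, 8.19 and 6.99 in spheres and 7.37, 6.35 and 8.46 outside at 48 h, and 8.26, 8.05 and 9.15 in spheres and 8.11, 7.33 and 9.34 outside at 24 h. Ifit2 measured 8.35, 8.97 and 8.31 in spheres and 8.11, 6.96 and 9.16 outside at 48 h, and 8.79, 9.25 and 10.18 in spheres and 8.93, 7.70 and 10.35 outside at 24 h. Ifit3 measured 9.02, 9.87 and 9.25 in spheres and 8.85, 7.79 and 10.03 outside at 48 h, and 9.52, 10.03 and 10.76 in spheres and 9.47, 8.56 and 11.18 outside at 24 h. For each of the 3 genes the outside arrays spanned the in-sphere values at 48 h, and at 24 h the highest and the lowest of the 6 arrays were both outside arrays. The differences ran from 0.10 to 0.49 at 48 h and from 0.23 to 0.41 at 24 h, with standard errors from 0.57 to 0.64.

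The Mx proteins are dynamin-like GTPases that block viral replication, and RefSeq lists both mouse genes as transcribed pseudogenes in this assembly of the C57BL/6J genome. Mx1 measured 7.33, 7.71 and 7.34 in spheres and 6.09, 5.44 and 7.25 outside at 48 h, and 7.02, 8.34 and 9.28 in spheres and 7.27, 6.18 and 8.81 outside at 24 h. At 48 h the groups did not overlap, although replicate 3 outside lay just below the lowest in-sphere array, and the difference was 1.20 ± 0.66 (limma adjusted p = 0.181). Mx2 was dimmer and differed by 0.47 ± 0.43 at 48 h and 0.57 ± 0.43 at 24 h. Non-overlapping arrays, all higher in spheres, were thus found for 4 of 35 genes at 48 h (Isg20, Gbp3, Mx1 and Eif2ak2), against 20.7% of all genes. None was lower without overlap, against 31% of all genes, and at 24 h there were 0 in either direction, against 22% and 21.5%.

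In the OAS family, which includes enzymes that make the oligoadenylates that activate RNase L, 0 of 4 genes were called at either time. Oas3 measured 5.95, 6.51 and 5.44 in spheres and 6.82, 6.34 and 7.41 outside at 48 h, and 5.21, 6.38 and 6.98 in spheres and 6.77, 6.34 and 6.61 outside at 24 h. The groups overlapped at both times, at 48 h through replicate 2 alone, and the difference was -0.89 ± 0.41 at 48 h (limma adjusted p = 0.107) and -0.38 ± 0.41 at 24 h. Oas2, its direct neighbour on chromosome 5, differed by -0.66 ± 0.45 and -0.77 ± 0.45. Oasl1 and Oasl2, also neighbours on chromosome 5, differed by -0.003 ± 0.42 and 0.12 ± 0.49 at 48 h and by 0.51 ± 0.42 and -0.07 ± 0.49 at 24 h. Oasl1 is known in mouse to restrain translation of Irf7.

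Of the immunity-related GTPases, which act with the guanylate-binding proteins, Iigp1 had the widest spread of the list. It measured 4.68, 6.57 and 4.94 in spheres and 3.30, 4.34 and 6.01 outside at 48 h, and 4.97, 6.49 and 7.13 in spheres and 4.94, 5.16 and 7.45 outside at 24 h. The groups overlapped at both times. Igtp differed by 0.28 ± 0.36 and -0.07 ± 0.36, and Irgm1, a regulator of the other members, by -0.42 ± 0.35 and -0.43 ± 0.35. Usp18, which strips ISG15 from proteins and blocks the interferon receptor, differed by 0.86 ± 0.47 at 48 h (limma adjusted p = 0.173) and 0.48 ± 0.47 at 24 h. Herc6, the mouse ligase that attaches ISG15, measured 4.76, 5.60 and 4.59 in spheres and 4.88, 4.52 and 5.76 outside at 48 h, and 4.18, 5.91 and 6.20 in spheres and 5.25, 4.57 and 6.26 outside at 24 h. Its groups overlapped at both times, and it differed by -0.07 ± 0.54 and 0.07 ± 0.54.

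Among the remaining effectors, Rsad2 (viperin) and Cmpk2, a mitochondrial nucleotide kinase, are direct neighbours on chromosome 12. Rsad2 measured 9.91, 10.39 and 9.78 in spheres and 9.59, 9.01 and 10.53 outside at 48 h, and 10.08, 10.83 and 11.40 in spheres and 10.36, 9.34 and 11.46 outside at 24 h. Outside arrays spanned the in-sphere range at both times, and the differences were 0.32 ± 0.51 and 0.39 ± 0.51. Cmpk2 differed by -0.21 ± 0.52 and 0.28 ± 0.52. Rtp4, an inhibitor of viral replication, differed by -0.06 ± 0.35 and -0.68 ± 0.35, Parp14, an ADP-ribosyltransferase, by -0.51 ± 0.35 and -0.50 ± 0.35, Trim30a by -0.07 ± 0.30 and -0.29 ± 0.30 and Ifi35 by 0.19 ± 0.28 and -0.06 ± 0.28. Xaf1, a pro-apoptotic factor, differed by 0.31 ± 0.37 and -0.13 ± 0.37 on its brightest probe set. Its second, dimmer probe set differed by 3.60 at 48 h and 2.21 at 24 h and shared the high array in 1 of 4 groups. The 2 probe sets of Xaf1 therefore disagree, and which of its transcripts each one reads is not known here. In all, 13 genes had 16 further probe sets.

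**Figure D4:**
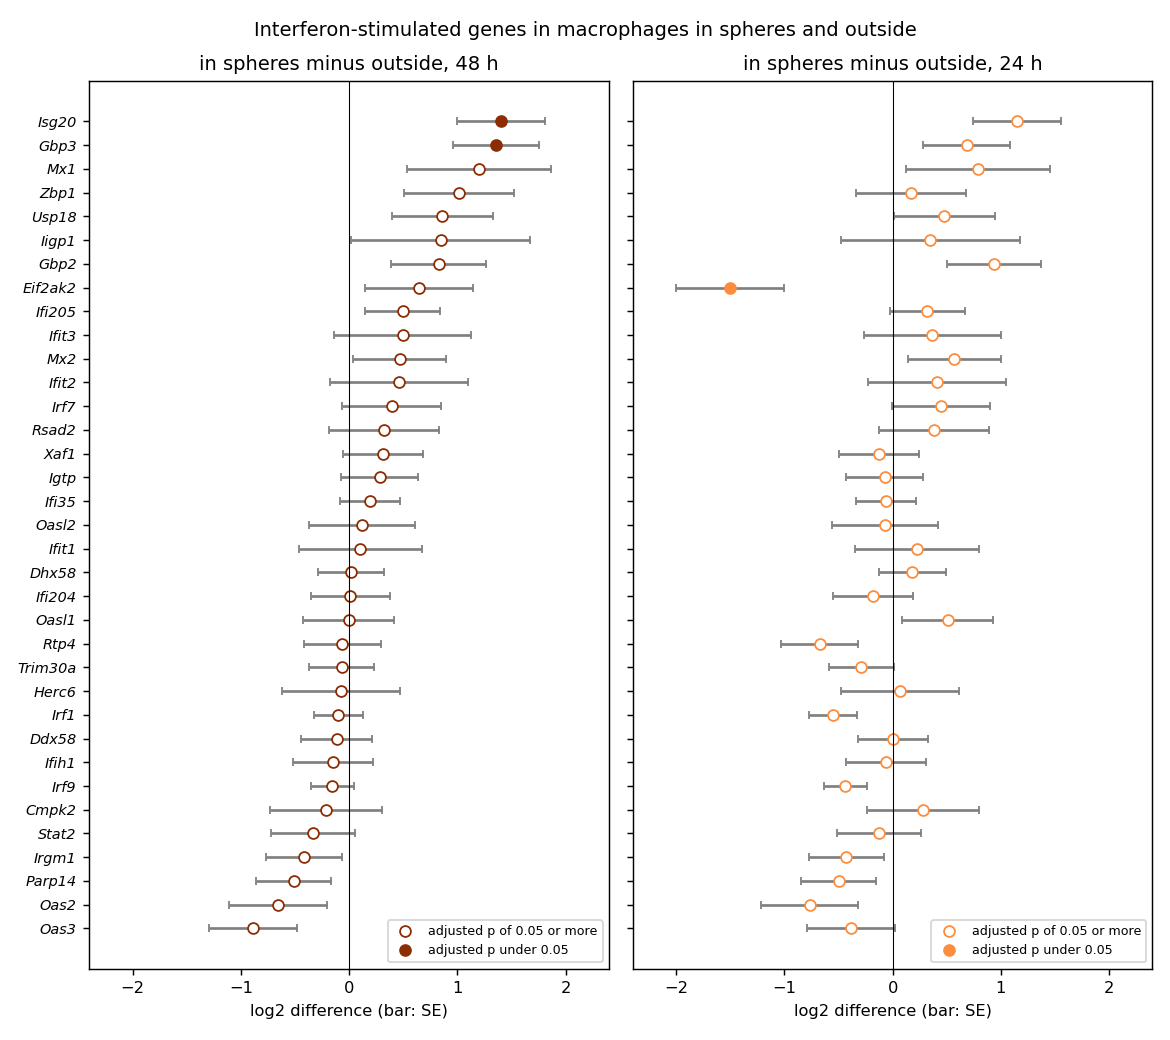
Log2 difference of in-sphere minus outside macrophages (horizontal axis, bars are the standard error) for 35 interferon-stimulated genes, ordered by the 48 h value, at 48 h (left) and 24 h (right). Filled points passed an adjusted p of 0.05: Isg20 and Gbp3 at 48 h, and Eif2ak2 at 24 h.

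Because the genes share a level on each array, the fit was repeated with the list's median on an array as a covariate, which was added after the values had been seen. The covariate is built from these genes, so by construction some must lie above it and others below, and in that fit a difference is relative to the rest of the list. Their residual SD then had a median of 0.174, against 0.201 over all genes. The slope, the change of a gene per log2 unit of the median, ran from 0.398 for Irf9 to 1.70 for Iigp1, with 1.65 for Mx1, 1.59 for Ifit2, 1.58 for Ifit3 and 0.486 for Irf1. As the mean over both times, 10 genes were higher in spheres and 8 lower, together 18 of 35 against 46.6% of all genes in that fit, of which 25.9% were lower. At 48 h 11 of 35 were called, against 37.8% of all genes, and at 24 h 14 of 35, against 29.9%. Gbp3 lay higher by 0.92 ± 0.08 (limma adjusted p = 4.41e-06), Isg20 by 1.18 ± 0.16, Mx1 by 0.83 ± 0.11, Gbp2 by 0.78 ± 0.14, Usp18 by 0.55 ± 0.09 and Zbp1 by 0.46 ± 0.08. On the other side lay Oas2 at -0.81 ± 0.18, Oas3 at -0.71 ± 0.20, Parp14 at -0.59 ± 0.10, Irgm1 at -0.51 ± 0.08, Rtp4 at -0.45 ± 0.10 and Irf1 at -0.37 ± 0.08. These 12 genes kept their call in 13 of 13 further settings, in which an array was left out or the mean over the list took the place of the median. The 4 further genes called higher were Irf7, Ifi205, Mx2 and Rsad2, and the 2 further genes called lower were Irf9 and Trim30a. Of these, Ifi205 and Irf9 kept their call in all 13, Irf7 in 12, Trim30a in 10, Mx2 in 7 and Rsad2 in 4.

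Over time, 48 h against 24 h, none of the 35 genes was called in spheres or outside in the fit without pairing, where 0% and 0.336% of all genes were called. At an unadjusted p under 0.05 there were 4 genes in spheres (Oasl1, Gbp2 and Cmpk2 with negative and Eif2ak2 with positive differences) and 2 outside (Gbp2 and Gbp3, both negative), against 10.7% and 10.8% of all genes. In spheres the 48 h arrays lay above all 24 h arrays for 1 of 35 genes (Eif2ak2), against 4.46% of all genes, and below them for 2 (Gbp2 and Cmpk2), against 9.3%. The median difference was -0.29 in spheres and -0.45 outside, beside -0.07 and 0.03 over all genes. A change between the times of the difference between compartments was called for 0 of 35 genes and for 0% of all genes, with 1 gene, Eif2ak2, at an unadjusted p under 0.05, against 12.3% of all genes.

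Outside arrays of the 2 times with the same replicate number deviated together, with correlations over genes of 0.470, 0.456 and 0.392 when the list was left out. The outside arrays were therefore also fitted alone with the replicate number as a block, a choice made after the values had been seen. In that fit 15 of 35 genes fell at 48 h against 24 h and 0 rose, where 5.55% of all genes were called, 3.09% lower and 2.46% higher. The median standard error was 0.121 against 0.407 without the block, on 2 residual degrees of freedom among arrays. Within the replicate numbers 1, 2 and 3, the median difference of the genes was -0.47, -0.45 and -0.74, beside 0.02, 0.01 and 0.04 over all genes. All 3 pairs were lower for 33 of 35 genes, against 18.9% of all genes. Since the genes move together, these counts rest on 3 pairs of arrays and not on 35 separate observations.

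Ifit1 fell by 0.87 on the log2 scale with an SE of 0.10 (limma adjusted p = 0.00770), with pair differences of -0.74, -0.98 and -0.88. Iigp1 fell by 1.30 with an SE of 0.16 and pair differences of -1.64, -0.82 and -1.44 (limma adjusted p = 0.00928). Mx1 fell by 1.16 with an SE of 0.16 and pair differences of -1.18, -0.74 and -1.56 (limma adjusted p = 0.0117). The other genes called lower were Ifit2, Ifit3, Zbp1, Gbp3, Gbp2, Cmpk2, Parp14, Oasl1, Isg20, Rsad2, Usp18 and Igtp, with differences between -0.55 and -1.12. Among the transcription factors, none of them called, Irf9 differed by -0.27 ± 0.10, Stat2 by -0.22 ± 0.12 and Irf7 by -0.15 ± 0.10. Oas3 was higher at 48 h in all 3 pairs, at 0.05, 0.01 and 0.80, a pattern of 25.9% of all genes, without a call, and Ifih1 was lower in 2 of 3. The number of genes called was 13 without replicate 1, 10 without replicate 2 and 6 without replicate 3, so the count was smallest without replicate 3. In-sphere arrays of the 2 times deviated together less by number, with correlations of 0.106, 0.141 and 0.0272 when the list was left out. Taken by number, their medians of the 35 genes at 48 h minus 24 h were 0.13, 0.04 and -1.17.

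**Figure D5:**
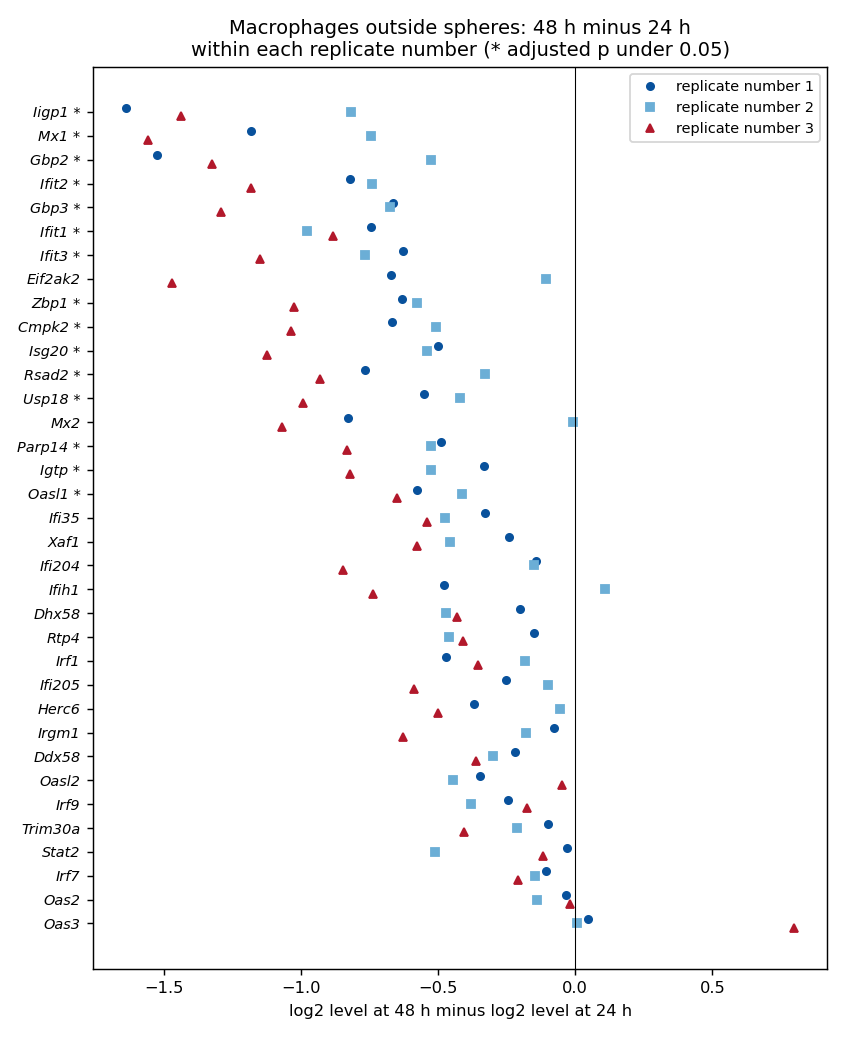
Log2 level at 48 h minus 24 h (horizontal axis) in macrophages outside the spheres for 35 interferon-stimulated genes, with a point per replicate number and genes ordered by their mean. For 33 genes all 3 points lie below 0, and stars mark the 15 genes with an adjusted p under 0.05 in the fit of outside arrays with the replicate number as a block.

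The same array order was looked for in all tested genes. Outside the list, 67 genes had the order of the list's median in all 4 groups. Of them, 18 stand in the other gene lists used here. Those are lists of interferon-pathway genes or, for Klrb1c, of T and NK cell markers. By the root mean square distance between their deviations and the list's median over 12 arrays, the closest were Parp12 at 0.101, Irgm2 at 0.111, Tor3a at 0.113, Epsti1 at 0.121, Ifi209 at 0.139 and Ube2l6 at 0.148. Within the list itself that distance ran from 0.077 for Gbp3 to 0.668 for Iigp1. These genes were chosen by that distance after the values had been seen. Parp12 is an ADP-ribosyltransferase, Irgm2 an immunity-related GTPase and Ube2l6 the enzyme that carries ISG15 to its targets.

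For the counts by direction that follow, 15.2% of all tested genes were higher and 22.3% lower in spheres at 48 h, and 15.8% were higher and 13.6% lower at 24 h. Among the genes upstream of the programme, the receptor chains Ifnar1 and Ifnar2 differed by 0.17 ± 0.17 and 0.02 ± 0.13 at 48 h and by 0.27 ± 0.17 and -0.03 ± 0.13 at 24 h, without a call. Of 14 receptor and JAK-STAT genes, 1 was higher and 6 were lower in spheres at 48 h, and 0 were higher and 3 lower at 24 h. Ptpn6, the phosphatase SHP-1, was lower by 0.77 ± 0.12 at 48 h (limma adjusted p = 0.000399), and Irf2, a factor that competes with Irf1, was lower by 0.69 ± 0.16. The higher gene was Ifngr1, a chain of the interferon-gamma receptor, by 0.41 ± 0.13 at 48 h (limma adjusted p = 0.0234), a call lost on leaving out replicate 2 or 3 in spheres or replicate 1 or 2 outside at 48 h, with limma adjusted p from 0.0618 to 0.0774. Of 18 sensors and adaptors, 5 were lower at 48 h, against 22.3% of all genes, and 2 at 24 h, against 13.6%, and 0 were higher. Myd88, the Toll-like receptor adaptor, was lower by 0.82 ± 0.12 at 48 h and by 0.67 ± 0.12 at 24 h, and Irf3, which switches on Ifnb1, by 0.45 ± 0.12 and 0.36 ± 0.12 (limma adjusted p = 0.0129 and 0.0463). The 24 h call of Irf3 was lost on leaving out most single arrays, with limma adjusted p up to 0.135 without replicate 1 in spheres at 24 h. Irf8 differed by -0.04 ± 0.16 and 0.27 ± 0.16, and Tnf by 0.04 ± 0.14 and -0.29 ± 0.14, without a call.

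Of 41 further antiviral genes, 8 were higher and 7 lower in spheres at 48 h, and 4 were higher and 5 lower at 24 h, shares near those of all genes, with medians of -0.04 and -0.06. Of the 41, 28 shared the list's highest array in all 4 groups. Ifi202b, a HIN-200 gene with close paralogs, measured 6.91, 7.47 and 7.40 in spheres at 48 h, against 3.46, 3.16 and 3.01 outside, and it was higher by 4.05 ± 0.22 (limma adjusted p = 3.65e-07). Ifitm1, a membrane protein that blocks viral entry, was higher by 3.00 ± 0.24 at 48 h and by 2.49 ± 0.24 at 24 h. Neither of these genes shared the list's highest array in all groups. Slfn5, a Schlafen family gene that did share it, measured 3.52, 4.82 and 3.19 in spheres and 6.56, 6.04 and 6.80 outside at 48 h, and was lower by 2.62 ± 0.49 (limma adjusted p = 0.00116). At 24 h Slfn5 was lower by 2.07 ± 0.49.

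Among 17 interferon-gamma targets and antigen-loading genes, 2 were higher and 3 lower at 48 h, and 1 was higher and 1 lower at 24 h. Cxcl10, a chemokine for activated T cells, measured 9.25, 9.28 and 9.0 in spheres and 6.15, 6.20 and 7.11 outside at 48 h, and 8.66, 9.38 and 9.56 in spheres and 8.32, 8.58 and 8.99 outside at 24 h. It was higher by 2.69 ± 0.28 at 48 h (limma adjusted p = 2.15e-05), where the groups did not overlap, and differed by 0.57 ± 0.28 at 24 h (limma adjusted p = 0.158), where they overlapped. Cxcl11, a related chemokine, was higher by 1.07 ± 0.31 at 48 h and by 2.31 ± 0.31 at 24 h, the 48 h call being lost without replicate 2 in spheres at 48 h (limma adjusted p = 0.0664). Of 6 further guanylate-binding and immunity-related GTPases 0 were called at either time, but Irgm2 was lower as the mean over both times, by 0.89 ± 0.27 (limma adjusted p = 0.0175). Of 7 feedback inhibitors, 3 were higher at 48 h and 4 at 24 h, and 0 were lower at either time. As the mean over both times, 4 were higher and 1, Socs1, was lower. Socs1 had means of 2.88 in spheres and 3.21 outside at 48 h, and of 2.87 and 3.16 at 24 h. Its call was lost in 6 of 19 other settings. Socs3, which damps STAT3 signalling, was higher by 1.82 ± 0.15 at 48 h and by 1.67 ± 0.15 at 24 h.

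Markers of other cells differed between the compartments. The summed level of 11 fibroblast and stromal markers ran from 4830 to 4950 in spheres and from 967 to 1850 outside at 48 h, and from 3470 to 6470 in spheres and from 916 to 1390 outside at 24 h. Of the 11, 8 were higher and 1 lower in spheres at 48 h, and 7 were higher and 1 lower at 24 h. Col1a1 had lower means in spheres, 5.04 against 6.27 outside at 48 h and 4.32 against 4.92 at 24 h. The sum of 19 neural and neuroblastoma markers ran from 281 to 352 in spheres and from 129 to 137 outside at 48 h, and from 268 to 425 in spheres and from 154 to 165 outside at 24 h, with 6 of the 19 never above 2.77. Much of that sum in spheres came from Gap43 and Ncam1, with means of 6.92 and 6.08 at 48 h, against 2.51 and 4.44 outside. Of 12 tested markers, 3 were higher in spheres at 48 h and 2 at 24 h, and 0 were lower. Their median differences were 0.07 and 0.003. The sum of 11 granulocyte markers ran from 13600 to 21100 in spheres and from 36600 to 49200 outside at 48 h, and from 19600 to 27100 in spheres and from 44000 to 52900 outside at 24 h. At each time 8 of the 11 were lower in spheres, among them Ltf, lactoferrin, by 3.09 ± 0.32 at 48 h, while Prtn3, a granule protease of early myeloid cells, was higher by 2.15 ± 0.32 at 48 h. Elane and Mpo, of the same early granules, also had higher means in spheres at both times. The sum of 10 lymphocyte markers, mostly of T and NK cells, ran from 56.1 to 69.6 in spheres and from 73.2 to 75.8 outside at 48 h, and from 71.5 to 75.8 in spheres and from 69.9 to 79.3 outside at 24 h. Cd3g, Ncr1, Gzmb and Gzma never passed 2.77, while Cd3e and Klrk1 did so on all 12 arrays at no more than 3.87. Cd3d was lower in spheres by 1.30 ± 0.16 at 48 h and by 0.82 ± 0.16 at 24 h. The part of these cells in the differences of Isg20, Gbp3, Ifi202b, Ifitm1 and Cxcl10 was not tested.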

How the data were processed

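RNA from 12 samples was measured on Affymetrix mouse arrays. The submitters' processing notes name Affymetrix Expression Console 1.1 and RMA. The values were deposited by the authors as log2 signals, with array medians from 3.03 to 3.17. RMA includes a step that brings arrays towards a common distribution, so a shift shared by all genes may be reduced. The table has 45141 probe sets, of which 28898 carry 1 gene symbol, 551 several and 15692 none. Probe sets with 1 symbol were used, the one with the highest mean standing for its gene. Genes above the 40th percentile of all values (2.77) on at least 3 arrays were tested.

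A model of the 4 group means was fitted to all 12 arrays with limma 3.58.1 in R 4.3.3 (8 residual and 4.09 prior degrees of freedom), with p-values adjusted over 12488 genes by Benjamini-Hochberg at 0.05. The fit was tested on simulated data. The number of arrays, 3 per group, limits the precision. Alternatives were leaving out each array, the replicate number as a block, other filters, probe set rules, scalings and variance settings, and fits with only the groups compared.

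Equal replicate numbers are not stated to mark shared experiments. Same-numbered arrays deviated together for outside 48 h and outside 24 h (r = 0.471, 0.473 and 0.419), but not in every pair of the other groups (r = 0.0215 to 0.219, with at least 1 under 0.1 in each combination), so numbers were taken to pair only the outside arrays.

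The members and the gene lists were chosen with earlier results of these data known. All members could be named. Values on every array are printed for the members called in the fit without added terms, for the 6 with the largest residual SD, and for Irf7, Zbp1, Oas3 and Rsad2, which were called only in added fits and were chosen from among those after their values were seen. In the other lists, up to 3 called genes per direction and comparison could be named, with a fixed set of pathway and macrophage genes. Promoter sequences are from RefSeq, GRCm38.p6.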

Additional observations from a re-analysis of the deposited data

Results flagged for a closer look

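Elavl4, a neuronal RNA-binding protein used as a neural marker, lay higher at 48 h than at 24 h on all in-sphere arrays and lower at 48 h than at 24 h on all outside arrays. Its levels were 3.03 ± 0.04 in spheres and 2.37 ± 0.15 outside at 48 h, and 2.73 ± 0.01 in spheres and 2.58 ± 0.04 outside at 24 h (SD, n = 3 each). The in-sphere difference was thereby 0.504 larger on the log2 scale at 48 h than at 24 h, a change that was not called. Only the in-sphere arrays at 48 h were above 2.77.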

How the results depend on the processing

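At 24 h the main fit called 1 gene. It called 2 with the replicate number as a block (replicate block), with a stricter filter at the 60th percentile, with the mean of all probe sets, with quantile normalization once more, with arrays centred on their medians and with array weights. It called 0 with no filter and with only the groups compared. The mean over both times called 3 genes, against 5 with the replicate block (also Mx1 and Usp18, limma adjusted p = 0.0380 and 0.0445) and 6 with array weights. A difference between replicate numbers was called by the limma F-test for 0 of 35 members, against 24 of 12488 tested genes. At an unadjusted p under 0.05 in that test there were 10 members, against 1234 of all genes. With array weights 1 member was called. The 48 h against 24 h comparison outside called 0 genes, and 15 in outside arrays alone with the replicate block, a choice made after seeing the data. With the list's median as a covariate, also added after seeing the data, the counts were 11 at 48 h, 14 at 24 h and 18 as the mean. The cause of these changes was not tested.

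Leaving out each array in turn gave 0 to 3 calls at 48 h, 0 to 3 at 24 h, 2 to 7 as the mean and 0 to 2 between replicate numbers. Leaving out each pair gave 6 to 13 in the paired outside fit. With the covariate, leaving out each array gave 7 to 11 at 48 h, 8 to 14 at 24 h and 15 to 20 as the mean. The median difference over the list ran from -0.20 to 0.54 at 48 h and from -0.27 to 0.43 at 24 h, so its sign rests on single arrays. Over single genes and settings, 1360 values kept their side of the threshold, 99 lost a call and 0 of the called values reversed. The wide spread of the list, with 3 arrays per group, limits what could be detected.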
